A study of Homo sapiens with 14 samples.

Results

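The histone genes of PLB-985 and HL-60 cells were followed from the proliferating state to a neutrophil-like state by RNA sequencing. The members were taken by name: every row with an NCBI gene ID whose symbol was a clustered histone symbol (HIST1H to HIST4H), and 9 replacement histone genes (H1F0, H1FX, H2AFX, H2AFZ, H2AFV, H2AFY, H2AFJ, H3F3A and H3F3B). This gave 98 genes, 89 clustered and 9 replacement, out of 37466 rows with an NCBI gene ID and 60707 rows in all.

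HL-60 is a human promyelocytic leukemia line, and PLB-985 is a line reported to be genetically identical to it. The 14 libraries were made from polyadenylated RNA. In each line, undifferentiated cells (day 0, 0% DMSO, 9% FBS) were compared with cells kept for 6 days in 1.3% DMSO with 9% FBS, and with cells kept for 6 days in 1.3% DMSO with 2% Nutridoma, a serum substitute, and 0.5% FBS. Each of these 6 groups had 2 libraries, which carry the replicate numbers 1 and 2, and the last protocol was also sampled in PLB-985 by 1 library on day 2 and 1 on day 4. The PLB-985 cells stably carried a histone H2B-mCherry reporter, for which HL-60 had no counterpart, so that line and reporter cannot be told apart. The source of the H2B cDNA is not given in the sources used here, and HIST1H2BJ, an H2B gene, is therefore described apart from the other members.

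A nucleosome wraps DNA around an octamer of the core histones H2A, H2B, H3 and H4, and the linker histone H1 binds where the DNA enters and leaves it. Most core histones are made in S phase from clustered genes without introns, whose mRNAs end in a conserved stem-loop in place of a poly(A) tail. Replacement variants come from genes that are transcribed through the cell cycle and in resting cells into polyadenylated mRNA. Some clustered genes are also known to give polyadenylated transcripts in differentiated cells. Enrichment of polyadenylated RNA selects against the stem-loop form. How much of that form was carried over into these libraries was not measured, so the levels below need not be those of polyadenylated transcripts alone.

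The 3′ end sequences are shown first because they bear on which transcripts such a library captures well. Of the 89 clustered genes, 71 were coding in GENCODE release 44, and 68 of these held a stem-loop 22 to 67 bases after the stop codon. The search asked for a stem of 6 bases that starts with GG and pairs with a stretch ending in CC over at least 5 of 6 positions, around a loop of 4 bases starting with TT. In 66 of the 68 all 6 positions paired. The sites below are on GRCh38, lie in the 3′ untranslated region and are written as DNA in the direction of the mRNA, with the stem-loop in capitals and 5 bases on each side. They are the sites of the genes whose values are described in most detail.
HIST1H1C (chr6:26055739-26055764, minus strand): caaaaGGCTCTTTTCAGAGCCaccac
HIST1H2AC (chr6:26124664-26124689, plus strand): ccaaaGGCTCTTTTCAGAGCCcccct
HIST2H2AA3 (chr1:149842218-149842243, minus strand): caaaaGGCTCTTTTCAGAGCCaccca
HIST3H2A (chr1:228457364-228457389, minus strand): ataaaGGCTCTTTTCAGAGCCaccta
HIST2H2BE (chr1:149886183-149886208, minus strand): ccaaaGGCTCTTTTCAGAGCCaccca
HIST1H2BK (chr6:27146361-27146386, minus strand): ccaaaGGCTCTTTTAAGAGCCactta
HIST1H2BD (chr6:26158582-26158607, plus strand): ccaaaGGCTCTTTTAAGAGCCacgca
HIST1H2BJ (chr6:27132316-27132341, minus strand): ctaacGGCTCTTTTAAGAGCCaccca
HIST1H4J (chr6:27824454-27824479, plus strand): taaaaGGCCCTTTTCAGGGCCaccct
HIST1H4K (chr6:27831173-27831198, minus strand): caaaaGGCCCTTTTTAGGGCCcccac
HIST2H4A (chr1:149833027-149833052, plus strand): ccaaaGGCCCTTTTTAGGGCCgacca
H2AFX (chr11:119094893-119094918, minus strand): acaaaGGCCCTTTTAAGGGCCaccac

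The form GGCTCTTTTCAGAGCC was found in 41 genes, among them the H1, H2A and HIST2H2BE sites above. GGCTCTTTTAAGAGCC was found in 10 genes, including HIST1H2BC, HIST1H2BD, HIST1H2BJ and HIST1H2BK. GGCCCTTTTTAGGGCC was found in 4 genes, all of them H4 genes (HIST1H4I, HIST1H4K, HIST2H4A and HIST2H4B). Of the replacement genes only H2AFX, whose product is phosphorylated around DNA breaks, held a stem-loop, 49 bases after the stop codon. Both annotated transcripts of H2AFX run past it, by up to 1024 bases. A transcript that runs at least 50 bases past the stem-loop is annotated for 17 of the 68 clustered genes, and for 15 of these such a transcript has AATAAA or ATTAAA in its last 50 bases. These longer transcripts were annotated for 8 of the 16 coding clustered genes with enough signal to be tested and for 9 of the 52 that were not tested. The 8 include HIST1H2BJ and the copies HIST2H4A and HIST2H4B. No such transcript is annotated for HIST1H2BK.

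The promoters of clustered genes are shown because members of a class share motifs that the choice of genes did not use. A promoter is here the RefSeq (GRCh38.p14) window from 250 bases before to 50 bases after a gene's start. A promoter was found for 74 of the 98 members, 82 in all, and the CCAAT box (CCAAT) was searched on both strands, as were the TATA box (TATAAA) and, separately from these, the octamer (ATTTGCAT). The stretches below are the 150 bases before the start, in the direction of transcription, with these motifs in capitals. HIST1H2BK had the highest level of the clustered genes besides HIST1H2BJ, and HIST1H2AC and HIST2H2BE stood at higher levels on day 6 in every differentiation. HIST2H4A stands for the H4 class, and H3F3B and H2AFZ are the replacement genes with the highest levels.
HIST1H2BK (chr6:27146856-27147005, minus strand): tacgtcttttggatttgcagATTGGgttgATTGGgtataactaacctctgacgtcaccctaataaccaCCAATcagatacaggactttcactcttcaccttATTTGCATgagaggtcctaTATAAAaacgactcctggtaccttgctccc
HIST1H2BJ (chr6:27132796-27132945, minus strand): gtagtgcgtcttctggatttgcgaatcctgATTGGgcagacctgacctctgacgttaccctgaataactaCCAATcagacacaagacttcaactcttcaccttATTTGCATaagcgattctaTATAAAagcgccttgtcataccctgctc
HIST2H2BE (chr1:149886683-149886832, minus strand): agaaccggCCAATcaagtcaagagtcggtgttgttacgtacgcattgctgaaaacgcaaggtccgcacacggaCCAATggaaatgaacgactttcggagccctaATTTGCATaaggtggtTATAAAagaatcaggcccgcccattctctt
HIST1H2AC (chr6:26124022-26124171, plus strand): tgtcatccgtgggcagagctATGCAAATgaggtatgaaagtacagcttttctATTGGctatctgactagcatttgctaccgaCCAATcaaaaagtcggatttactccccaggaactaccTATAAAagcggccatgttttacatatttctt
HIST2H4A (chr1:149832507-149832656, plus strand): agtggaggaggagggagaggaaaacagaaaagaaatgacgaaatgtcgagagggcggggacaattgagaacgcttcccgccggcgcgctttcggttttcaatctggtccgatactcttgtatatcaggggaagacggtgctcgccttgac
H3F3B (chr17:75779780-75779929, minus strand): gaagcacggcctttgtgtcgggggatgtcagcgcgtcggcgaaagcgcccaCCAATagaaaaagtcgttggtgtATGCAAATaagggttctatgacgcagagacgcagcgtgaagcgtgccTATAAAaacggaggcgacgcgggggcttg
H2AFZ (chr4:99950276-99950425, minus strand): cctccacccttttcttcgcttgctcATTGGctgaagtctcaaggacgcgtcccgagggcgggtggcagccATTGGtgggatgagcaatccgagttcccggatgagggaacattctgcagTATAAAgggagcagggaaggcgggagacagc

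The octamer was held by 75% of 20 H2B promoters and 68.8% of 16 H2A promoters, against 1.77% of all 35116 promoters. It was held by 6.67% of 15 H3 promoters and by none of the 13 H4 and 6 H1 promoters. The H3 promoter that held it is a second start of HIST1H3D, with the same window as the H2A gene HIST1H2AD. Windows of H2A and H2B genes that start back to back overlap, and both strands were searched. A motif between such genes can therefore be counted for both, as for the octamer of HIST1H2AC and HIST1H2BC. The H2A and H2B shares are thus not independent of each other. CCAAT was found in every H1, H2A, H2B and H3 promoter but in 23.1% of the H4 promoters, against 34.6% of all promoters. TATAAA was found in 67.1% of the 70 clustered promoters and in 11.5% of all. Of the 12 promoters of 8 replacement genes 1 held the octamer, that of H3F3B, 76 bases before the start. These matches describe the letters of the windows and were not tested as binding sites.

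Levels are given as normalized FPKM, that is fragments per kilobase of transcript and relative to the mapped fragments of the library (FPKM), after scaling by the authors. A row entered the tests if 2 or more of the 12 libraries with a replicate showed 1 normalized FPKM or above, which 13778 rows did. Log2 changes and their tests are on the scale of log2(normalized FPKM + 1), which understates the change of low levels, and a fold is the ratio of the mean levels of 2 groups with nothing added. Of the 89 clustered genes, 21 were listed at 0 in all 14 libraries, 44 were above 0 but stayed under 1 in every library, 24 reached 1 in some library and 4 reached 10. The 18 tested were 1 of 8 H1 genes, 6 of 22 H2A genes, 7 of 26 H2B genes, 4 of 16 H4 genes and none of the 17 H3 genes. By cluster, 9 of 67 HIST1 genes on chromosome 6 and 8 of 17 HIST2 genes on chromosome 1 were tested. Of the 17 tested clustered genes other than HIST1H2BJ, 7 passed this filter on undifferentiated libraries alone, and 10 passed only with the help of a day 6 library. Of the 9 replacement genes 7 were tested, while H1F0 and H2AFJ were listed at 0 in every library, which is no measure of absence.

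All 10 myeloid marker genes on a list kept for this check reached 1 normalized FPKM. Of the lymphocyte markers 3 of 8 did, of the stromal and epithelial markers 1 of 8, and of the erythroid and megakaryocyte markers none of 8, with 6 of them listed at 0 in all libraries. The number of reads behind each value is unknown, since the deposited tables hold FPKM only, and no counting interval is given. In these bulk samples fewer cells that express a gene and less RNA per cell cannot be told apart.

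H2AFZ, H2AFV and H2AFX were lower and H3F3B was higher in all 4 comparisons of day 6 with undifferentiated cells. On day 6 against undifferentiated cells, 3 of the 7 tested replacement genes were lower and 1 was higher with DMSO in PLB-985, and 4 were lower and 1 higher in HL-60. With DMSO and Nutridoma 4 were lower in either line, and 2 were higher in PLB-985 and 1 in HL-60. Of all rows tested, 35.8% were lower and 24.6% higher with DMSO in PLB-985, and 34.7% and 26% in HL-60. With DMSO and Nutridoma the shares were 35.8% lower and 24% higher in PLB-985, and 33.6% and 25.5% in HL-60, and nothing is read from the counts over 7 genes beside these shares. The genes lower with DMSO in PLB-985 (H2AFZ, H2AFV and H2AFX) were all lower in HL-60 too, and the 4 lower with Nutridoma were the same in both lines, which share no library.

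H2AFZ encodes H2A.Z, a variant found in the nucleosomes that flank active promoters, and it was the most abundant replacement gene in undifferentiated cells. It stood at 444 and 391 normalized FPKM in undifferentiated PLB-985 and at 494 and 516 in undifferentiated HL-60. After 6 days it stood at 117 and 89.9 with DMSO and at 137 and 94.7 with DMSO and Nutridoma in PLB-985. In HL-60 the day 6 values were 107 and 72.6 with DMSO and 93.7 and 83.7 with Nutridoma. Every undifferentiated library lay above every day 6 library. The mean level of H2AFZ was 4.04-fold lower with DMSO in PLB-985 (log2 -2.01, SE 0.16, limma adjusted p = 2.9e-05) and 5.61-fold lower in HL-60 (log2 -2.50, SE 0.16, adjusted p = 1.3e-05).

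H2AFV encodes the second H2A.Z protein, H2A.Z.2, and moved less. It stood at 124 and 118 in undifferentiated PLB-985, 93.1 and 78.7 with DMSO, and 89.6 and 76.4 with DMSO and Nutridoma. In HL-60 it stood at 117 and 125 in undifferentiated cells, 83.1 and 71.8 with DMSO, and 57.8 and 49.1 with Nutridoma. The 4 groups of day 6 libraries lay below the undifferentiated libraries of both lines, by 1.41-fold with DMSO in PLB-985 (log2 -0.49, SE 0.11, limma adjusted p = 0.0060) and by 2.26-fold with Nutridoma in HL-60 (log2 -1.17, SE 0.11, adjusted p = 7.6e-05). The H2AFV call with DMSO in PLB-985 was lost without the scaling of the authors, with median-of-ratios scaling, and without the second DMSO library of PLB-985. The ratio of H2AFZ to H2AFV was 3.32 to 4.23 in the 4 undifferentiated libraries and 1.01 to 1.70 in the 8 day 6 libraries.

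H2AFX fell in all 4 comparisons. It stood at 46.3 and 52.6 normalized FPKM in undifferentiated PLB-985, at 19.4 and 12.4 with DMSO, and at 14.9 and 14.3 with DMSO and Nutridoma. In HL-60 it went from 57.2 and 61.8 to 13.9 and 8.85 with DMSO and to 9.56 and 6.84 with Nutridoma. The groups did not overlap in either line. The change of H2AFX was log2 -1.61 (SE 0.22, limma adjusted p = 0.00040) with DMSO and -1.69 with Nutridoma in PLB-985, and -2.32 and -2.73 in HL-60.

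H2AFY encodes macroH2A1, a large H2A variant associated with repressed chromatin. HL-60 libraries held 172 and 213 in undifferentiated cells, 112 and 96.1 with DMSO, and 97.5 and 83.4 with Nutridoma. In PLB-985 it stood at 72.8 and 86.4, then 74.4 and 61.3, then 58.1 and 55.1. H2AFY was lower with DMSO in HL-60 (log2 -0.88, SE 0.17, limma adjusted p = 0.0022), and in PLB-985 the value was -0.23 (SE 0.17, adjusted p = 0.26), but the difference between these responses was 0.65 (SE 0.23) and did not pass the test (adjusted p = 0.30). With Nutridoma in PLB-985 it was lower (log2 -0.48, adjusted p = 0.035), a call lost under either other scaling, without the low value filter, and without either PLB-985 Nutridoma library or the second undifferentiated one.

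H3F3A and H3F3B encode the same H3.3 protein from separate genes, and only H3F3B rose in all 4 comparisons. H3F3B stood at 266 and 262 normalized FPKM in undifferentiated PLB-985, at 657 and 551 with DMSO, and at 764 and 547 with Nutridoma. The HL-60 values were 390 and 312, then 642 and 573, then 778 and 555. No day 6 library fell within the undifferentiated range. The increase of H3F3B was 2.29-fold with DMSO in PLB-985 (log2 1.19, SE 0.13, limma adjusted p = 0.00016) and 1.73-fold in HL-60 (log2 0.80, SE 0.13, adjusted p = 0.0013).

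H3F3A stood at 128 and 163 in undifferentiated PLB-985, 133 and 181 with DMSO, and 179 and 207 with Nutridoma. In HL-60 the values were 131 and 197, then 133 and 170, then 153 and 196. The groups overlapped except for PLB-985 with Nutridoma, where H3F3A was higher (log2 0.41, SE 0.11, limma adjusted p = 0.012). That call was lost without the replicate block (the term for the replicate number), without either undifferentiated PLB-985 library or without the first Nutridoma library. The ratio of H3F3B to H3F3A was 1.58 to 2.99 in undifferentiated libraries and 2.65 to 5.10 on day 6, so the ranges overlapped at the first HL-60 library. Of the 75-base windows of H3F3A transcripts 17% also occur in other transcripts.

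H1FX encodes linker histone H1.10. It stood between 18.9 and 70.9 normalized FPKM in the 12 replicated libraries and no comparison passed the test. In undifferentiated cells the values were 40.9 and 48.6 in PLB-985 and 55.4 and 35.3 in HL-60. The log2 change of H1FX ran from -0.56 (SE 0.29) with Nutridoma in HL-60 to 0.29 (SE 0.29) with DMSO in PLB-985, so that a change of this size could not be told from the spread.

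**Figure D1:**
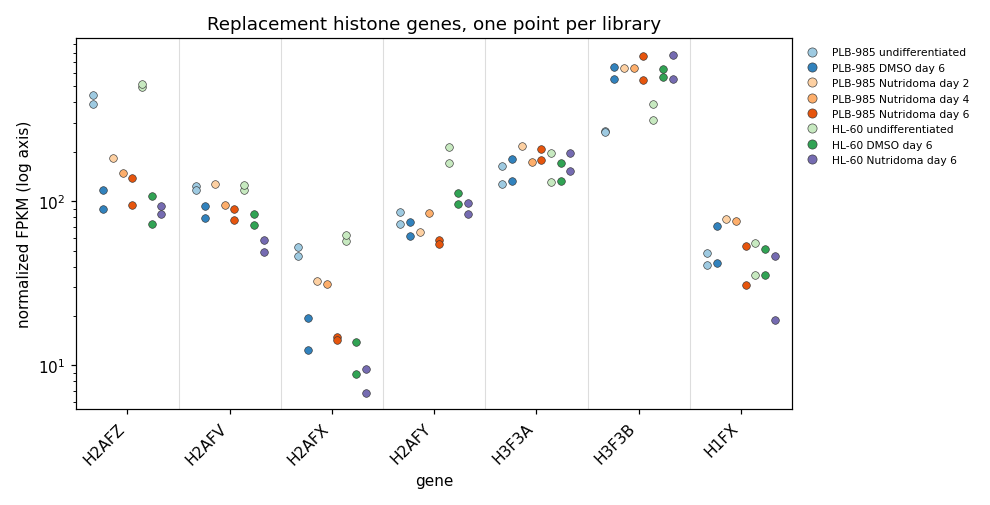
Level of each of the 7 replacement histone genes above 0 in normalized FPKM on a log axis, with 1 point for each of the 14 libraries, coloured by line, protocol and day. H2AFZ dropped from 391 to 516 in undifferentiated libraries to 72.6 to 137 on day 6, while H3F3B stood at 547 or above in every day 6 library.

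Summed over the 9 replacement genes, the level was nearly steady in PLB-985 and lower in HL-60. The sum was 1122 and 1122 normalized FPKM in undifferentiated PLB-985, 1165 and 1017 with DMSO, and 1297 and 1026 with Nutridoma. It was 1415 and 1460 in undifferentiated HL-60, 1142 and 1028 with DMSO, and 1236 and 993 with Nutridoma. Between processing alternatives the PLB-985 sum moved from 0.907 to 1.10 times the undifferentiated level with DMSO, so it had no set direction, and the HL-60 sum with DMSO stayed lower at 0.715 to 0.863 times. Within this sum H2AFZ took 34.9% to 39.6% in undifferentiated libraries and 7.07% to 10.6% on day 6. H3F3B took 21.3% to 27.6% and then 53.4% to 63.0%.

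HIST1H1C, HIST1H2BK and HIST2H2BE were higher in all 4 comparisons of day 6 with undifferentiated cells. They are among the 7 clustered genes that passed the filter on undifferentiated libraries alone, with HIST2H2AC, HIST3H2A, HIST1H4J and HIST1H4K. Of these 7 genes, 5 were higher and none lower with DMSO in PLB-985, against 24.6% of all rows higher, and 3 were higher and none lower with Nutridoma, against 24%. In HL-60, 3 were higher and none lower with DMSO, against 26%, and 3 were higher and 1 lower with Nutridoma, against 25.5%. The lower gene, HIST3H2A, passed the filter only through HL-60 libraries without Nutridoma, where it was higher. HIST1H4J and HIST1H4K, the additional pair with DMSO in PLB-985, are near-identical copies. The remaining 10 genes needed a day 6 library to be tested at all, so how many of them rose is in part fixed by the filter. They are HIST1H2AC, HIST1H2AM, HIST2H2AA3, HIST2H2AA4, HIST1H2BC, HIST1H2BD, HIST2H2BC, HIST2H2BD, HIST2H4A and HIST2H4B. These genes are described below by their levels. The test results printed beside these levels carry the same limit and are no separate support for a rise.

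**Figure D2:**
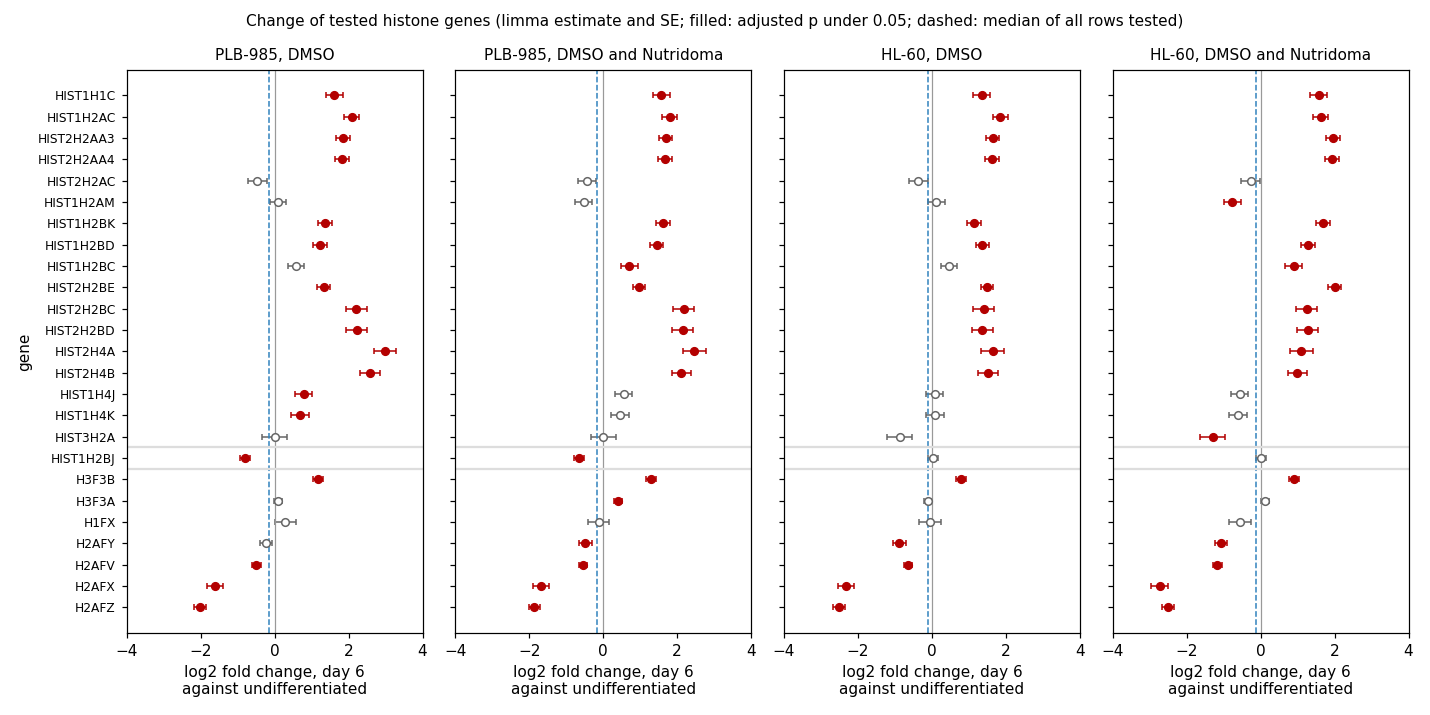
Log2 fold change on day 6 against undifferentiated cells for the 25 tested members in 4 panels, 1 for each line and protocol, with limma standard errors as bars. Filled points passed an adjusted p of 0.05, and the dashed line is the median of all 13778 rows tested, close to 0. HIST1H1C, HIST1H2BK and HIST2H2BE lie to the right in each panel, and H2AFV, H2AFX and H2AFZ to the left. Of the clustered genes drawn, 10 entered the tests only with a day 6 library.

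Of the linker histones, HIST1H1C (H1.2) was the only clustered gene tested. It stood at 2.63 and 1.80 normalized FPKM in undifferentiated PLB-985, 8.5 and 9.01 with DMSO, and 9.40 and 7.58 with Nutridoma. The levels in HL-60 cells were 2.05 and 1.67, then 5.11 and 7.58, then 6.47 and 8.56. All day 6 libraries lay above all undifferentiated libraries. HIST1H1C was 3.95-fold higher with DMSO in PLB-985 (log2 1.61, SE 0.23, limma adjusted p = 0.00047) and 3.41-fold higher in HL-60 (log2 1.34, SE 0.23, adjusted p = 0.0012). No annotated transcript of HIST1H1C runs past its stem-loop.

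Among H2A genes, HIST1H2AC and the pair HIST2H2AA3 and HIST2H2AA4 stood higher on day 6 in all 4 comparisons, with the filter limit given above. HIST1H2AC stood at 0.399 and 0.221 in undifferentiated PLB-985, 5.34 and 3.88 with DMSO, and 4.37 and 2.83 with Nutridoma. In HL-60 it stood at 0.549 and 0.944, then 5.30 and 5.16, then 5.03 and 3.74. The groups did not overlap, and HIST1H2AC changed by log2 2.09 (SE 0.20, limma adjusted p = 7.6e-05) with DMSO in PLB-985 and by 1.84 (SE 0.20, adjusted p = 0.00014) in HL-60.

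HIST2H2AA3 and HIST2H2AA4 are copies on chromosome 1, and 100% and 99.8% of their 75-base windows occur in another transcript, so the split of reads between them is uncertain. HIST2H2AA3 stood at 0.582 and 0.490 in undifferentiated PLB-985, 4.83 and 4.19 with DMSO, and 4.35 and 3.54 with Nutridoma. HL-60 libraries held 1.62 and 0.922, then 5.28 and 6.78, then 8.84 and 6.72. The increase of HIST2H2AA3 was log2 1.84 (SE 0.19, limma adjusted p = 9.3e-05) with DMSO in PLB-985 and 1.64 (SE 0.19, adjusted p = 0.00017) in HL-60.

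The other tested H2A genes did not share this direction. HIST2H2AC stood at 2.71 and 1.91 in undifferentiated PLB-985 and 2.25 and 0.750 with DMSO, and at 2.49 and 1.60 and then 2.16 and 0.729 in HL-60. Its groups overlapped and none of the 4 differentiation comparisons passed. HIST1H2AM stood at 0.590 and 1.44 in undifferentiated HL-60, 0.633 and 1.79 with DMSO, and 0.110 and 0.214 with Nutridoma, and was lower with Nutridoma (log2 -0.76, SE 0.23, limma adjusted p = 0.020). That call was lost without the replicate block and without the second HL-60 library of either group. HIST1H2AM entered the tests only through libraries without Nutridoma, where it was higher. Of its windows 65.9% are shared, with HIST1H3J, which overlaps it.

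HIST3H2A was listed at 0 in all 8 PLB-985 libraries. The HL-60 values were 5.74 and 1.49 in undifferentiated cells, 1.51 and 1.02 with DMSO, and 0.942 and 0.443 with Nutridoma. The first undifferentiated library was far above the second. HIST3H2A was lower with Nutridoma (log2 -1.29, SE 0.34, limma adjusted p = 0.011), a call lost without the second HL-60 Nutridoma library, and with DMSO the value was -0.87 (adjusted p = 0.054). It entered the tests only through HL-60 libraries without Nutridoma, where it was higher, so the filter limits the Nutridoma call. Its neighbour HIST3H2BB, whose start lies 230 bases away on the other strand, did not exceed 0.0739 in any replicated library.

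The H2B genes made the largest part of the clustered signal, and HIST1H2BK alone made 22.6% to 47.6% of the clustered sum. HIST1H2BK stood at 7.11 and 8.90 normalized FPKM in undifferentiated PLB-985, 22.0 and 22.0 with DMSO, and 25.1 and 27.7 with Nutridoma. The levels in HL-60 cells were 11.5 and 14, then 21.6 and 39.2, then 35.7 and 51.6. No groups of undifferentiated and day 6 libraries overlapped. HIST1H2BK was 2.75-fold higher with DMSO in PLB-985 (log2 1.36, SE 0.19, limma adjusted p = 0.00045), 3.3-fold higher with Nutridoma, and 2.38-fold and 3.42-fold higher in HL-60. Of the 75-base windows of HIST1H2BK, 39% also occur in other transcripts, so part of its signal cannot be placed with certainty.

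HIST1H2BD, in the same HIST1 cluster, stood higher on day 6 in all 4 comparisons as well, with the filter limit given above. It stood at 0.505 and 0.568 in undifferentiated PLB-985, 2.66 and 2.56 with DMSO, and 3.27 and 3.07 with Nutridoma. In HL-60 it stood at 0.872 and 1.02, then 3.42 and 4.67, then 4.46 and 3.10. The log2 change of HIST1H2BD lay between 1.23 (SE 0.18, limma adjusted p = 0.00067) with DMSO in PLB-985 and 1.44 (SE 0.18, adjusted p = 0.00030) with Nutridoma in PLB-985.

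HIST1H2BC changed less. It stood at 0.771 and 0.913 in undifferentiated PLB-985, 1.81 and 1.70 with DMSO, and 2.65 and 1.46 with Nutridoma, and in HL-60 at 0.909 and 1.46, then 1.73 and 2.27, then 2.72 and 3.35. Every day 6 library was above the highest undifferentiated library of its line. HIST1H2BC passed with Nutridoma in PLB-985 (log2 0.70, SE 0.22, limma adjusted p = 0.026) and in HL-60 (log2 0.89, adjusted p = 0.0095), and with DMSO the values were 0.58 (adjusted p = 0.053) and 0.46 (adjusted p = 0.11). Leaving out either undifferentiated library or the first Nutridoma library ended the call in PLB-985, and leaving out the first undifferentiated or second Nutridoma library ended it in HL-60.

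Of the HIST2 cluster, HIST2H2BE rose in all 4 comparisons. It stood at 0.406 and 0.541 in undifferentiated PLB-985, 3.07 and 2.37 with DMSO, and 1.93 and 1.81 with Nutridoma. HL-60 libraries held 1.00 and 1.08, then 4.07 and 5.44, then 7.68 and 6.72. The log2 change of HIST2H2BE was 1.33 (SE 0.17, limma adjusted p = 0.00029) and 0.96 with DMSO and with Nutridoma in PLB-985, and 1.48 and 2.00 in HL-60.

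HIST2H2BC and HIST2H2BD are near-identical pseudogenes with 100% shared windows, and their values ran together. HIST2H2BC stood at 0.593 and 0.625 in undifferentiated PLB-985, 6.25 and 6.60 with DMSO, and 6.27 and 6.22 with Nutridoma. The HL-60 values were 2.01 and 0.697, then 4.79 and 5.16, then 6.18 and 3.01. Day 6 libraries lay above undifferentiated ones throughout, and HIST2H2BC rose by log2 2.21 (SE 0.28, limma adjusted p = 0.00027) with DMSO in PLB-985 and by 1.40 (SE 0.28, adjusted p = 0.0030) in HL-60. Whether the reads came from either pseudogene or from those other genes is uncertain.

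HIST2H4A, which encodes H4, had the largest log2 change of the members with DMSO in PLB-985. It stood at 0.293 and 0.504 normalized FPKM in undifferentiated PLB-985, 9.00 and 11.2 with DMSO, and 6.79 and 6.58 with Nutridoma. The levels in HL-60 cells were 1.51 and 0.610, then 4.45 and 6.28, then 4.68 and 2.26. The groups did not overlap, and HIST2H4A rose by log2 2.98 (SE 0.31, limma adjusted p = 0.00010) with DMSO in PLB-985 and by 1.65 (SE 0.31, adjusted p = 0.0021) in HL-60. The difference between the lines of 1.34 (SE 0.44) did not pass (adjusted p = 0.25). With Nutridoma in HL-60 it was higher (log2 1.10, adjusted p = 0.016), and that call was lost without the first HL-60 Nutridoma library, without the second undifferentiated HL-60 library, without the low value filter and in a fit to HL-60 alone. HIST2H4B, a copy with 100% shared windows, gave log2 2.58 and 1.52 with DMSO in PLB-985 and HL-60, and its HL-60 call with Nutridoma was lost on leaving out the same libraries.

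HIST1H4J and HIST1H4K, which share 91.4% and 92.0% of their windows with other transcripts, passed only with DMSO in PLB-985. HIST1H4J stood at 1.53 and 0.884 in undifferentiated PLB-985 and 2.64 and 2.86 with DMSO (log2 0.78, SE 0.23, limma adjusted p = 0.017), and at 2.33 and 3.36 and then 2.49 and 3.6 in HL-60 (log2 0.08, adjusted p = 0.79). HIST1H4K stood at 1.99 and 1.01 and then 3.66 and 2.38 in PLB-985 (log2 0.69, SE 0.25, adjusted p = 0.040). The difference between the lines was 0.71 (adjusted p = 0.43) for HIST1H4J and 0.60 (adjusted p = 0.57) for HIST1H4K. The HIST1H4J call was lost without either DMSO library or the second undifferentiated library of PLB-985, and the HIST1H4K call without any 1 of these or the first undifferentiated one, without either HL-60 DMSO library and without the replicate block. Both were also lost without the low value filter and in a fit to PLB-985 alone.

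No clustered H3 gene was tested. The highest value of any was 0.889 (HIST1H3J), and the H3 sum stayed between 0.508 and 2.65 normalized FPKM over the 14 libraries. HIST4H4, the lone HIST4 gene, was also under the filter, but its levels separated the groups. It stood at 0.0497 and 0.0503 in undifferentiated PLB-985, 0.371 and 0.621 with DMSO, and 0.448 and 0.580 with Nutridoma, and at 0.0302 and 0.0110 in undifferentiated HL-60, 0.724 and 1.12 with DMSO, and 0.381 and 0.186 with Nutridoma. HIST4H4 was singled out after its values were seen.

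**Figure D3:**
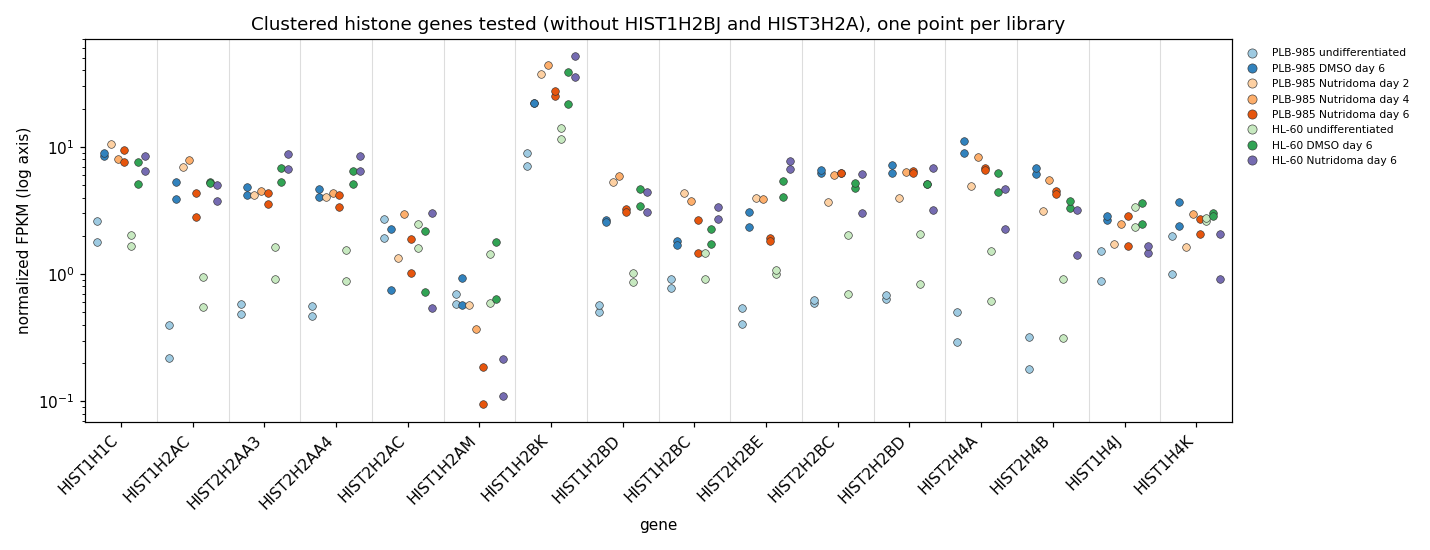
Level in normalized FPKM on a log axis for 16 tested clustered genes, with 1 point for each of the 14 libraries, coloured by line, protocol and day. HIST1H2BJ and HIST3H2A, which was listed at 0 in PLB-985, are not drawn. HIST1H2BK lies highest, at 7.11 to 51.6, and HIST2H2AC and HIST1H2AM show no common upward shift.

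The summed level of the 88 clustered genes other than HIST1H2BJ was 27.4 and 26.3 normalized FPKM in undifferentiated PLB-985, 97.6 and 94.9 with DMSO, and 92.1 and 84.5 with Nutridoma. In HL-60 it was 48.5 and 46.0, then 89.4 and 117.9, then 118.2 and 108.3. The ranges did not overlap. The sum was 3.59 and 3.29 times the undifferentiated level in PLB-985 and 2.2 and 2.4 times in HL-60, with DMSO and with Nutridoma in this order. Over the 10 genes that reached 5 normalized FPKM in 2 of the replicated libraries these ratios were 5.49, 5.14, 3.31 and 3.99, but only 1 of the 10, HIST1H2BK, did so in undifferentiated libraries, so these ratios are raised by the selection. The replacement sum was 29.2 to 42.7 times the clustered sum in undifferentiated libraries and 8.72 to 14.1 times on day 6.

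**Figure D4:**
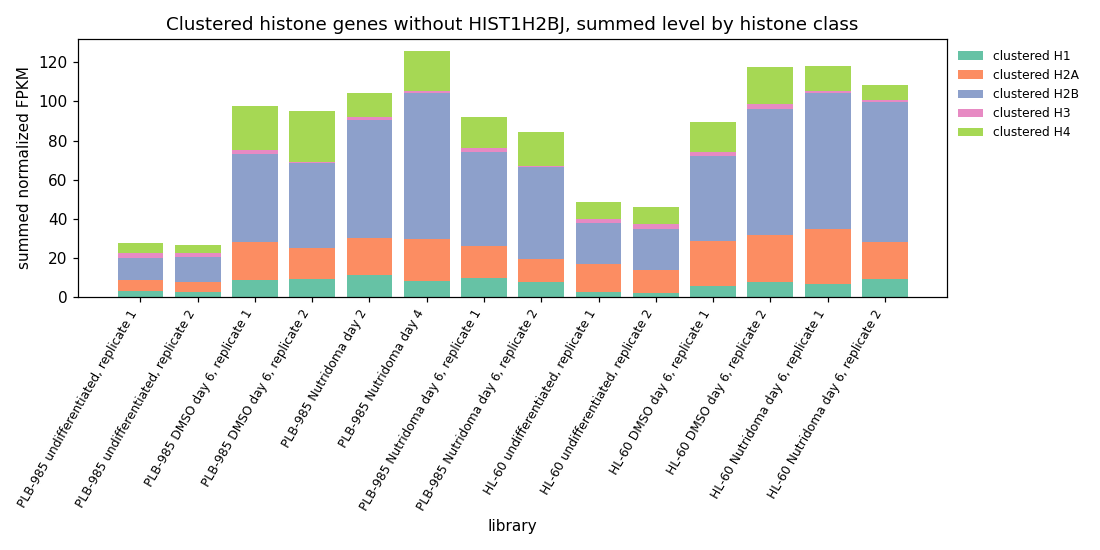
Summed level of the clustered genes without HIST1H2BJ in normalized FPKM for each of the 14 libraries, stacked by histone class from a baseline of 0. Undifferentiated libraries reach 26.3 to 48.5 and day 6 libraries 84.5 to 118.2, with H2B as the largest class in each and H3 as the smallest on day 6.

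Some clustered genes start back to back within 500 bases. By gene name 12 such pairs of H2A or H3 and H2B genes were found, 194 to 248 bases apart. HIST1H2AD and HIST1H3D, each paired with HIST1H2BF at 223 bases, have the same start there, so these 2 pairs are 1 site. Both genes were tested in 2 of the 12 pairs. In the pair of HIST1H2BC and HIST1H2AC, 246 bases apart, HIST1H2AC stood higher on day 6 in all 4 comparisons, and HIST1H2BC passed with Nutridoma. Both genes entered the tests only with a day 6 library. Their calls carry the filter limit given above and are no separate support for a rise. In the pair of HIST2H2BE and HIST2H2AC, 236 bases apart, HIST2H2BE rose in all 4 comparisons and HIST2H2AC passed in none. In the other pairs at least 1 gene was too low to be tested, among them HIST1H2AG, the partner of HIST1H2BJ, at 0.109 to 0.405 normalized FPKM in the replicated libraries.

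The day 2 and day 4 libraries of PLB-985 had no replicate and were not tested. H3F3C, whose level followed the replicate number in the other libraries (9.18 to 26.1 normalized FPKM in first and 0.508 to 1.39 in second replicates), stood at 1.19 on day 2 and 20.7 on day 4, so the day cannot be told apart from the run and the 2 libraries are not compared with each other. Of the 17 tested clustered genes without HIST1H2BJ, 13 lay above both undifferentiated PLB-985 libraries on day 2 and 15 on day 4, counts that carry the same limit of the filter. On day 4, 11 of them also lay above both day 6 Nutridoma libraries. The share of all rows in these places was not computed, so nothing is read from these counts. HIST1H2BK stood at 37.2 on day 2 and 44 on day 4, above the 25.1 and 27.7 of day 6. HIST1H2AC stood at 6.96 and 7.83, and HIST1H2BD at 5.32 and 5.86. The clustered sum was 104.6 on day 2 and 125.8 on day 4, higher than in any other PLB-985 library.

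HIST2H4A stood at 4.94 on day 2 and 8.32 on day 4. Among replacement genes, H2AFZ was at 183 on day 2 and 149 on day 4, H2AFX at 32.9 and 31.4, and H3F3B at 643 and 642. H2AFV was at 128 on day 2, above both undifferentiated libraries, and at 94.6 on day 4.

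The 2 protocols differed little in these genes. With Nutridoma against DMSO in PLB-985, no member passed the limma test, 2 had an unadjusted p under 0.05 (HIST1H2AM and H3F3A), and 1.05% of all rows passed. In HL-60, H2AFV (log2 -0.53, SE 0.11, adjusted p = 0.021) and HIST1H2AM (log2 -0.88, SE 0.23, adjusted p = 0.037) were lower with Nutridoma, 2 of 25 tested members against 16.5% of all rows. Averaged over both lines, H2AFV (log2 -0.29, adjusted p = 0.046) and HIST1H2AM (log2 -0.75, adjusted p = 0.020) were lower, against 15.5% of all rows. HIST1H2AM stayed under 1 normalized FPKM in every Nutridoma library. It entered the tests only through libraries without Nutridoma, where it was higher, so the filter limits its calls here. All of these calls of H2AFV and HIST1H2AM were lost without the replicate block and on leaving out single libraries. The HL-60 call of H2AFV was lost without either HL-60 DMSO library or the second Nutridoma library. The HL-60 call of HIST1H2AM was lost without any 1 of 8 libraries, those of the HL-60 DMSO and Nutridoma groups and of the PLB-985 undifferentiated and DMSO groups. The difference of the Nutridoma effect between the lines passed for no member, with 2 at an unadjusted p under 0.05 (HIST2H2BE and H2AFV) and 0.515% of all rows passing.

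Between the lines, undifferentiated PLB-985 differed from undifferentiated HL-60 in 3 of 25 tested members, against 14.1% of all rows. HIST1H2BJ was higher, and H2AFY was lower (log2 -1.26, SE 0.17, limma adjusted p = 0.0023). HIST3H2A was lower as well (adjusted p = 0.0061), and no fold is given since it was listed at 0 in PLB-985. It entered the tests only through HL-60 libraries, where it was higher, so the filter limits this call. That call was lost without the first undifferentiated PLB-985 library. With DMSO only HIST1H2BJ passed, 6 others had an unadjusted p under 0.05, and 10.4% of all rows passed.

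With Nutridoma 8 members differed between the lines, against 23.9% of all rows. H2AFV (log2 0.62, SE 0.11, limma adjusted p = 0.0066) and H2AFX (log2 0.78, SE 0.22, adjusted p = 0.036) were higher in PLB-985, as was HIST1H2BJ. HIST2H2BE was lower in PLB-985, at 1.93 and 1.81 against 7.68 and 6.72 in HL-60 (log2 -1.51, SE 0.17, adjusted p = 0.00099). The remaining calls were H2AFY (log2 -0.66), HIST1H2BK (log2 -0.68), HIST2H2AA3 (log2 -0.82) and HIST2H2AA4 (log2 -0.81), all lower in PLB-985. The calls of H2AFX and H2AFY were each lost without any 1 of the 4 Nutridoma libraries, and that of HIST1H2BK without any of these or of the undifferentiated PLB-985 libraries. All 3 were also lost without the low value filter, H2AFX and HIST1H2BK without the replicate block, and H2AFY and HIST1H2BK without the scaling of the authors. Those of HIST2H2AA3 and HIST2H2AA4 were lost without 3 of the 4, and that of H2AFV without the first PLB-985 Nutridoma library. The difference of the DMSO response between the lines passed for no member, with 4 at an unadjusted p under 0.05 (HIST1H2BJ, HIST2H4A, HIST2H4B and H2AFY), against 1.31% of all rows.

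HIST1H2BJ, an H2B gene on chromosome 6, separated the lines completely. It stood at 1012 and 1031 normalized FPKM in undifferentiated PLB-985, 602 and 578 with DMSO, and 625 and 672 with Nutridoma, with 924 on day 2 and 603 on day 4. In HL-60 it stood at 0.706 and 1.14, then 1.10 and 0.810, then 0.822 and 1.02. It ranked between 103 and 154 among all rows in the PLB-985 libraries and between 10819 and 13042 in HL-60. Of the summed signal it took 0.0999% to 0.168% in PLB-985.

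The difference of HIST1H2BJ between the lines was log2 9.06 (SE 0.13, limma adjusted p = 4.4e-08) in undifferentiated cells, 8.24 with DMSO and 8.40 with Nutridoma. In PLB-985 it was lower on day 6, by log2 -0.79 (SE 0.13, adjusted p = 0.0013) with DMSO and -0.66 (SE 0.13, adjusted p = 0.0035) with Nutridoma, and in HL-60 the values were 0.03 and 0.01. The difference between the DMSO responses was -0.82 (SE 0.19, adjusted p = 0.11). Only 12 of its 993 windows of 75 bases, 1.21%, occur in other transcripts, those of HIST1H2BK, HIST1H2BN and HIST1H2BO among them. HIST1H2BK was not higher in PLB-985 in any protocol, and HIST1H2AG, which starts 248 bases from HIST1H2BJ, stood at 0.405 or lower in every replicated library. Whether the reads at HIST1H2BJ came from the reporter was not tested.

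**Figure D5:**
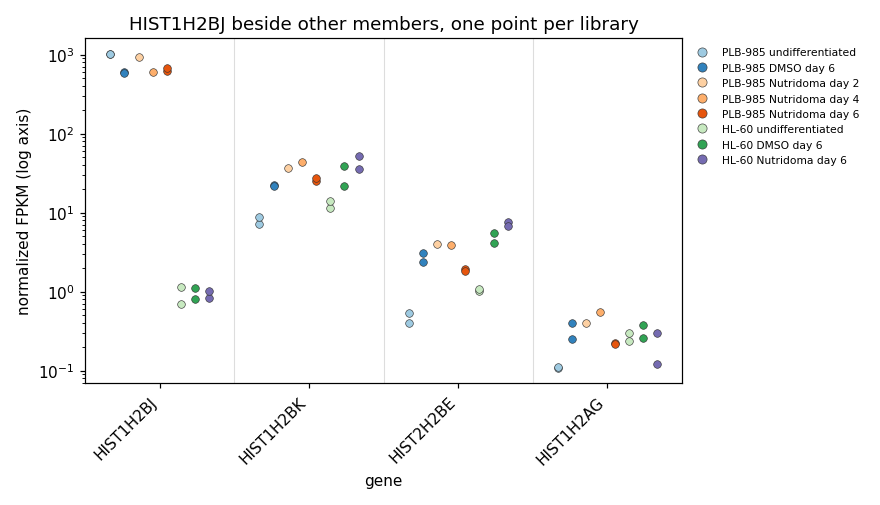
Level of HIST1H2BJ, HIST1H2BK, HIST2H2BE and HIST1H2AG in normalized FPKM on a log axis, with 1 point for each of the 14 libraries, coloured by line, protocol and day. HIST1H2BJ lies at 578 to 1031 in PLB-985 and at 0.706 to 1.14 in HL-60, and the other 3 genes have no such gap between the lines.

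Most genes that process, carry and deposit histones were lower on day 6, as were the S phase genes. All 25 genes of a list of DNA replication and S phase genes were lower in all 4 comparisons, with a median log2 change of -3.10 with DMSO in PLB-985 and -3.04 in HL-60. CDT1, which licenses origins, was log2 -4.26 (SE 0.25, limma adjusted p = 9.3e-06) and CDC45, a part of the replicative helicase, -3.99 with DMSO in PLB-985. Of all rows tested, 33.6% to 35.8% were lower in these 4 comparisons.

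Of 25 tested genes for histone mRNA transcription and processing, 18 were lower and 3 higher with DMSO in PLB-985, and 16 and 3 in HL-60. With Nutridoma the counts were 18 and 3 in PLB-985 and 17 and 4 in HL-60. Of all rows tested, 33.6% to 35.8% were lower and 24% to 26% higher in these comparisons. CDK2 and CCNE1, the kinase and cyclin that activate the histone gene coactivator NPAT, were lower by log2 -2.67 (SE 0.22, limma adjusted p = 3.6e-05) and -2.63 (SE 0.18, adjusted p = 1.6e-05) with DMSO in PLB-985. NPAT itself was at 0.25 (adjusted p = 0.34). ZCCHC6, which adds uridines to the ends of RNAs, was higher by 1.94 (SE 0.18, adjusted p = 5.6e-05), and LSM10, a subunit of the U7 particle that cuts histone mRNA, by 0.67 (adjusted p = 0.0039).

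SLBP, which binds the stem-loop, was named after its values were seen. It stood at 92.3 and 116 normalized FPKM in undifferentiated PLB-985, 37.7 and 46.6 with DMSO, and 38.8 and 54.0 with Nutridoma, and in HL-60 at 83.8 and 108, then 32.7 and 36.8, then 31.2 and 40.4. Every day 6 library lay below every undifferentiated one. The change of SLBP was log2 -1.28 (SE 0.10, limma adjusted p = 2.8e-05) with DMSO in PLB-985 and -1.43 (adjusted p = 1.9e-05) in HL-60.

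Of 26 histone chaperone and import genes, 22 were lower and 1 higher with DMSO in PLB-985, and 23 and 1 with Nutridoma. In HL-60 the counts were 21 and 0 with DMSO, then 22 and 1 with Nutridoma. The shares of all rows tested were again 33.6% to 35.8% lower and 24% to 26% higher. IPO4, an importin that carries H3 and H4, was lower by log2 -3.76 (SE 0.24, limma adjusted p = 1.2e-05) with DMSO in PLB-985. CHAF1B, a subunit of the CAF-1 chaperone, was lower by -2.83 (SE 0.18, adjusted p = 1.3e-05) and TONSL, which binds new histones at replication forks, by -2.77. UBN1, a subunit of the HIRA complex that deposits H3.3, was the gene that was higher, by 0.57 (SE 0.13, adjusted p = 0.0062). In HL-60 it was at 0.26 (adjusted p = 0.13). HIRA itself went the other way. It stood at 27.6 and 24.4 normalized FPKM in undifferentiated PLB-985 and at 12.71 and 12.97 with DMSO. In HL-60 HIRA went from 29.2 and 32.9 to 14.5 and 15.9 with DMSO. The rise of UBN1 is thus not a rise of the complex, and H3.3 deposition was not measured. Whether these changes bear on the levels of the histone genes was not tested.

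Of 10 further variant genes outside the 98, 3 were tested. CENPA, the centromeric H3, was lower by log2 -2.03 (SE 0.25, limma adjusted p = 0.00026) with DMSO in PLB-985 and -1.93 in HL-60. H2AFY2, which encodes macroH2A2, was lower with DMSO in HL-60 (log2 -0.86, SE 0.20, adjusted p = 0.0068), and it was listed at 0 in 7 of the 8 PLB-985 libraries. H3F3C, an intronless relative of H3F3B, was higher with DMSO (log2 0.87, SE 0.26, adjusted p = 0.020, and 0.76, adjusted p = 0.034), but its level followed the replicate number as given above.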

How the data were processed

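Polyadenylated RNA of 14 libraries was sequenced as 75-base single-end reads. Per the paper's methods and the labels, the authors aligned with STAR 2.4 to GRCh38 with GENCODE annotation and estimated levels with Cufflinks 2.2.1 (base calls from bcl2fastq 2.17.1.14). The deposited FPKM table holds these estimates. The deposited log10 table holds FPKM after the authors' scaling on uniformly expressed genes, with 0.0001 added before the logarithm, and was turned back to normalized FPKM here. No counts were used, so the depth of each library and a counting interval are unknown.

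Groups follow the labels. Values of 13778 rows with at least 1 normalized FPKM in 2 of the 12 replicated libraries were tested as log2(normalized FPKM + 1) with limma 3.58.1 (R 4.3.3, trend), a term for each group and a replicate block, 5 residual degrees of freedom, and Benjamini-Hochberg adjustment within each of the comparisons at 0.05. Per the methods the experiment was run on 2 independent days, and same-numbered libraries deviated together from their group means in all 15 pairs of groups (r 0.65 to 0.85), so the block was kept. Whether libraries of 1 day came from separate cultures is not given in the sources used here, and p-values measure the spread between these libraries. On simulated data the fit recovered 54% of changes of log2 1 and 99% of log2 2 in the PLB-985 DMSO comparison. There the changes were planted in a small part of the rows, while 60.4% of all rows passed in the data. These shares are therefore not the sensitivity of the fit to the data. Python 3.11.15, numpy 2.4.6, pandas 2.3.3 and matplotlib 3.10.9 were used.

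Members and gene lists were chosen with earlier results of these data known. Named genes were all replacement genes, HIST1H2BJ, up to 10 members per direction and comparison with the largest change past the threshold, up to 4 of the highest per class, up to 3 per direction of each list, and copies or neighbours of these. Alternatives were the block, 2 other scalings, the added constant, the low value filter, the variance trend, single-line fits and leaving out each library. Leaving out each library from the summed levels was chosen after seeing the data. Stem-loops and shared windows used GENCODE 44 transcripts on GRCh38, where 91 of 98 members were found by Ensembl ID and 7 by symbol.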

Additional observations from a re-analysis of the deposited data

How the results depend on the processing

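The alternatives were compared over the 25 tested members and the 10 comparisons other than the differences of response between the lines. In them 4914 values kept their side of the threshold, 56 newly passed and 110 fell short. No value that passed in the main fit or in the alternative reversed its direction. A change of sign in a value that passed in neither was counted as kept. Without the replicate block, the number of members called with Nutridoma against DMSO went from 2 to 0 in HL-60 and from 2 to 0 over both lines, while the differentiation counts of 18, 19, 16 and 19 (PLB-985 DMSO, PLB-985 Nutridoma, HL-60 DMSO and HL-60 Nutridoma) became 17, 18, 16 and 18. A fit to the HL-60 libraries alone also gave 0 for HL-60, and a filter of at least 5 normalized FPKM gave 1 for HL-60. Over both lines 1 member was called in place of 2 with FPKM without the scaling of the authors, with median-of-ratios scaling, with no filter, with a filter of at least 5 and with no variance trend. PLB-985 against HL-60 with DMSO went from 1 to 2 with constants of 0.1 and 0.5, with both other scalings, without the filter and without the variance trend, and in undifferentiated cells from 3 to 6 with a constant of 0.1. The cause was not tested.

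Leaving out each library in turn gave 15 to 19 and 16 to 19 members called with DMSO and with Nutridoma in PLB-985, and 16 to 17 and 16 to 21 in HL-60. For Nutridoma against DMSO it gave 0 to 2 in HL-60, 0 to 4 over both lines and 0 in PLB-985. For PLB-985 against HL-60 it gave 3 to 4 in undifferentiated cells, 1 to 3 with DMSO and 2 to 9 with Nutridoma, and for both differences of response between the lines 0.

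The other scalings shifted the median log2 change of all rows, from -0.15 to -0.04 and -0.02 with DMSO in PLB-985, and from -0.11 to 0.02 and -0.02 in HL-60, for FPKM without the scaling of the authors and median-of-ratios in this order. With 2 libraries a group, 5 residual degrees of freedom and no counts, small changes of low genes could not be told from the spread, and most clustered genes lay under 1 normalized FPKM.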
